A study of Mus musculus with 24 samples.

Results

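The GABA-A receptor subunit genes followed here were Gabra2, Gabra3, Gabra4, Gabra5, Gabrb1, Gabrb2 and Gabrd. They were taken by name, as 7 of the 19 GABA-A subunit genes of the mouse among 36333 genes in the expression table. All 7 were above 0 in each of the 24 libraries and all 7 passed the filter on low expression. Per the labels, the libraries came from 24 male C57BL6N mice aged 12 to 16 weeks, 1 library per mouse, at 5 dpi (days post injury). The study used both sexes and states that its sequencing was of male mice. Its methods instead name the substrain C57BL/6JRj and a narrower age range, and this conflict could not be settled. Traumatic brain injury (TBI) was produced by controlled cortical impact (CCI), in which a piston strikes the exposed cortex, and 5 mice each then received vehicle, PLX3397, Anakinra or PLX3397+Anakinra. PLX3397, an inhibitor of the microglial survival receptor CSF1R, was given in chow at 290 mg/kg from 90 min after injury. Anakinra, an antagonist of the interleukin 1 receptor IL1R1, was injected at 100 mg/kg under the skin after 5 min, 24 h, 48 h and 72 h. Per the study's methods, mice not given a drug received vehicle chow and saline injections, and the 4 sham mice had anesthesia, a skin incision and vehicle, but neither the craniotomy nor the impact. No transgene or targeted allele is named for any group.

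GABA-A receptors are chloride channels of 5 subunits that open when they bind the inhibitory transmitter GABA. Most hold α and β subunits together with a γ or δ subunit. The α subunit sets much of the pharmacology and the place of the receptor. Receptors with α2 or α3 are mostly synaptic, those with α5 are known from the hippocampus and deep cortical layers, and those with α4 and δ lie outside the synapse in thalamus, dentate gyrus and cortex, where they carry tonic inhibition. Gabrb1 and Gabrb2 encode the β1 and β2 subunits, which are part of the GABA binding site.

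GABA-A subunit genes often lie in clusters, and 3 of the 7 share chromosome 5. On the GRCm38.p6 RefSeq annotation Gabra2 was at chr5:70958392-71095849, Gabra4 at chr5:71569734-71658308 and Gabrb1 at chr5:71657921-72149572. Gabrb2 was at chr11:42419515-42632591 and Gabra5 at chr7:57407669-57591016. Gabra3 was at chrX:72432676-72656919 and Gabrd at chr4:155384979-155398098. Gabra4 and Gabrb1 are transcribed away from each other, and their annotated 5′ ends overlapped by 388 bases, so that the bases just upstream of each lie inside the other gene. No source states that the counting used strand, so reads within this stretch cannot be told apart between the partners.

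Upstream sequences are shown for 4 of the genes. Gabra4 and Gabrb1 are shown because they start side by side and still differed in their levels after injury, and Gabrb2 and Gabra2 because 1 of them fell with injury and the other did not. Each run is the 120 bases before the annotated start, 5′ to 3′ on the gene's own strand, from RefSeq (GRCm38.p6): chr5:71658309-71658428 (minus strand), chr5:71657801-71657920 (plus), chr11:42420320-42420439 (plus) and chr5:71095850-71095969 (minus). The start used for Gabrb2 lies inside its annotated gene span. Capitals mark the letters TATAAA.
Gabra4: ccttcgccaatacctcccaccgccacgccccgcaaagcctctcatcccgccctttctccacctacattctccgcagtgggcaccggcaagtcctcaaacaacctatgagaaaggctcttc
Gabrb1: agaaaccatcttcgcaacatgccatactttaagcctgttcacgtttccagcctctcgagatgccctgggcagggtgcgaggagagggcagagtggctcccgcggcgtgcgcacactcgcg
Gabrb2: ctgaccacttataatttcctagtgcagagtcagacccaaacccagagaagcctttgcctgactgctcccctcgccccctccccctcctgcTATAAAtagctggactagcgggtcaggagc
Gabra2: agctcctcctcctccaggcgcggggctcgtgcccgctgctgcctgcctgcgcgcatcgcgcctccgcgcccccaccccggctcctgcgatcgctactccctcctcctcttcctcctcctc

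Of the 7 members 6 had an entry in this promoter set, all but Gabrd. In the 250 bases before the start, searched on both strands, TATAAA was found for Gabra3 and Gabrb2, 2 of 6, beside 12.4% of 32851 mouse promoters. The EGR motif GCGNGGGCG was found for Gabrb2 alone, upstream of the stretch shown, beside 4.7% of promoters. The CRE motif TGACGTCA was found in 0 of 6 (1.55% of promoters), its shorter form TGACG, which lies inside it, in 0 of 6 (17.8%), and the E-box CACGTG in 0 of 6 (6.02%). Bases G and C made up 42.4% of these 250 bases for Gabra3, 56.4% for Gabra5, 58.8% for Gabrb2, 61.2% for Gabra4, 64.4% for Gabrb1 and 70.0% for Gabra2. These matches describe letters and were not tied to the measured changes.

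Levels are given in TPM, length-scaled transcript abundances, as the authors deposited them. In sham mice the levels ran in the order Gabrb2, Gabrd, Gabra4, Gabra3, Gabra5, Gabra2 and Gabrb1. Gabrb2 stood at 142 ± 11.2 TPM, Gabrd at 129 ± 7.54 TPM and Gabra4 at 117 ± 4.91 TPM (SD, n = 4). Gabra3 stood at 90.9 ± 7.03 TPM, Gabra5 at 63.8 ± 4.08 TPM, Gabra2 at 31.9 ± 4.65 TPM and Gabrb1 at 31.5 ± 3.44 TPM (SD, n = 4). The sham mice overlapped between Gabrb2 and Gabrd, between Gabrd and Gabra4, and between Gabra2 and Gabrb1, and the other neighbours in this order did not overlap.

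**Figure D1:**
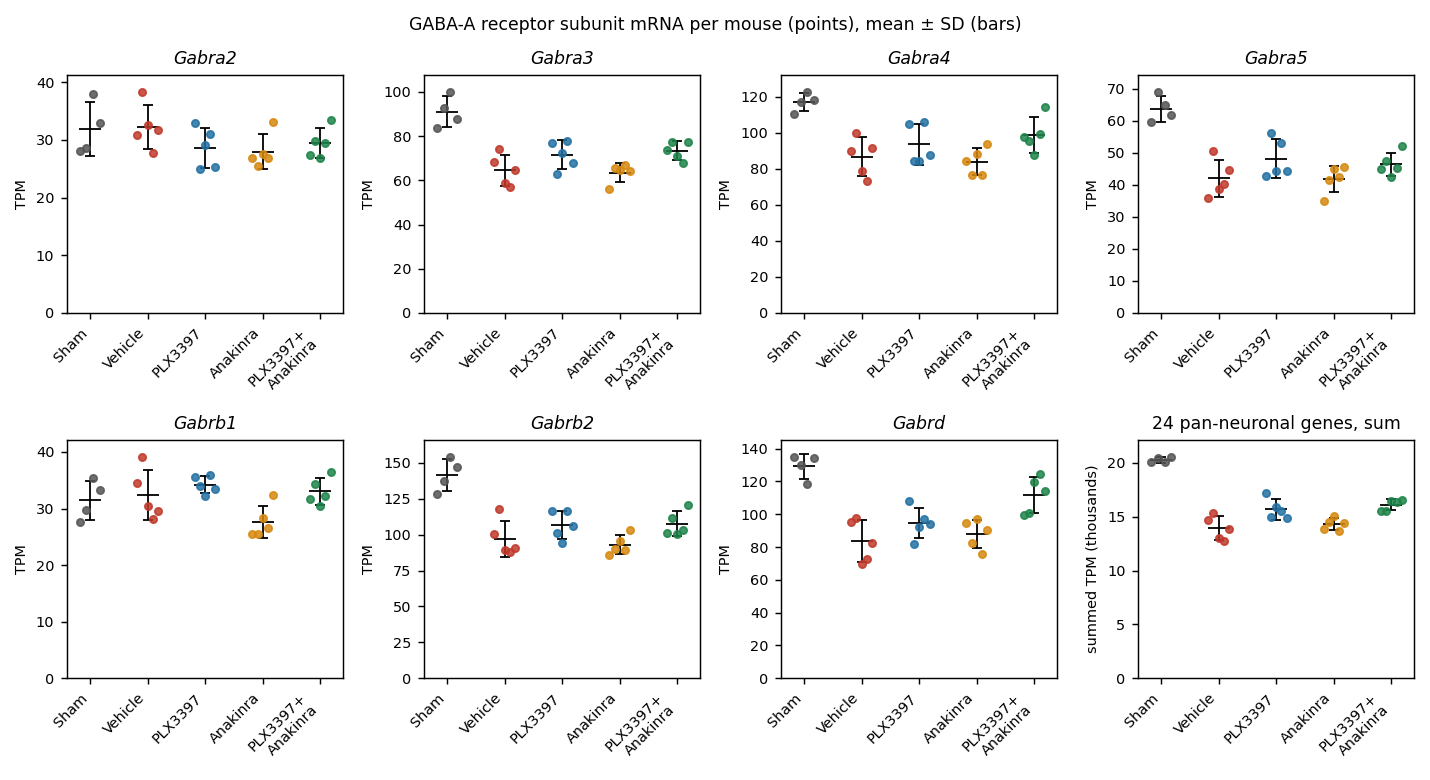
Level in TPM (y axis) of each of the 7 subunit genes in every mouse (points) of the 5 groups (x axis), with mean and SD as black bars, and in the last panel the summed TPM of 24 pan-neuronal genes. For Gabra3, Gabra4, Gabra5, Gabrb2 and Gabrd the 5 vehicle mice lie below the 4 sham mice, while for Gabra2 and Gabrb1 the groups overlap.

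The comparison of vehicle with sham asks how these transcripts differed after TBI without drug. It holds the impact and the craniotomy together, which cannot be told apart. Of the 7 genes 5 were lower after injury, Gabra3, Gabra4, Gabra5, Gabrb2 and Gabrd, by 26.1% to 35.4% of the sham mean. Gabra2 and Gabrb1 did not pass the test. A gene was called when its adjusted p in limma, fitted on log2(TPM + 1) over all 24 libraries with Benjamini-Hochberg adjustment over 17267 genes, was below 0.05. Of all genes tested, 27.7% were called lower in this comparison. The median log2 difference was -0.49 over the 7 genes and -0.01 over all genes. In bulk tissue, fewer cells of a type and less RNA per cell cannot be told apart, and this holds for each difference given here.

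Gabrd, the δ subunit of extrasynaptic receptors, was at 134.6, 129.8, 118 and 134 TPM in the sham mice and at 95.5, 97.6, 69.4, 72.7 and 82.4 TPM in the vehicle mice. Every vehicle mouse lay below every sham mouse. The log2 difference was -0.64 (SE 0.10, adjusted p = 4.3e-06). Gabra5 was at 59.5, 69.0, 64.9 and 61.8 TPM in sham and at 36.0, 50.7, 38.6, 40.4 and 44.7 TPM in vehicle mice, again without overlap. Its log2 difference was -0.60 (SE 0.09, adjusted p = 6.1e-06).

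Gabrb2 was at 128, 137, 154 and 147 TPM in sham mice. In the vehicle mice it was at 100.3, 118, 89.4, 88.2 and 90.5 TPM, all below the lowest sham mouse, a log2 difference of -0.54 (SE 0.08, adjusted p = 3.5e-06). Gabra3 was at 83.6, 92.7, 99.8 and 87.6 TPM in sham and at 68.1, 74.2, 58.7, 56.995 and 64.9 TPM in vehicle mice. The groups did not overlap and the log2 difference was -0.49 (SE 0.07, adjusted p = 4.8e-06). Gabra4, the usual partner of the δ subunit in the forebrain, was at 110.6, 117, 122 and 118 TPM in sham and at 89.7, 100.0, 78.5, 72.9 and 91.5 TPM in vehicle mice. These groups did not overlap either, with a log2 difference of -0.44 (SE 0.09, adjusted p = 1.9e-04). Lack of overlap in the lower direction was met by 21% of all genes tested.

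Gabra2 was at 28.0, 28.6, 38.0 and 33.0 TPM in sham and at 30.8, 38.3, 32.6, 27.7 and 31.7 TPM in vehicle mice. The groups covered the same range, and the log2 difference was 0.02 (95% confidence interval -0.19 to 0.22, adjusted p = 0.89). Gabrb1 was at 27.7, 29.7, 35.3 and 33.3 TPM in sham and at 34.5, 39.0, 30.4, 28.1 and 29.6 TPM in vehicle mice. Its log2 difference was 0.03 (interval -0.14 to 0.21, adjusted p = 0.77). Both intervals lie above the values of the 5 genes that fell. The study's criteria were an unadjusted p below 0.05, more than a 2-fold ratio and over 4 TPM of difference of group means. They were applied here with the unadjusted p of limma in place of the study's own tests. By them 0 of 7 genes were called in this comparison, beside 0.156% of all genes called lower.

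Among further subunit genes described here, Gabrr2 was called lower in vehicle than in sham mice (log2 difference -0.47, adjusted p = 0.012), with a mean of 1.01 TPM over all libraries. Gabrg1, Gabrg3, Gabre and Gabrq did not pass the test, with log2 differences of 0.18, -0.09, 0.26 and 0.17. Gabrg1 and Gabrg3 were at 9.13 and 11.3 TPM over all libraries. Gabra6, Gabrp, Gabrr1 and Gabrr3 had means below 0.5 TPM and were not tested.

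**Figure D2:**
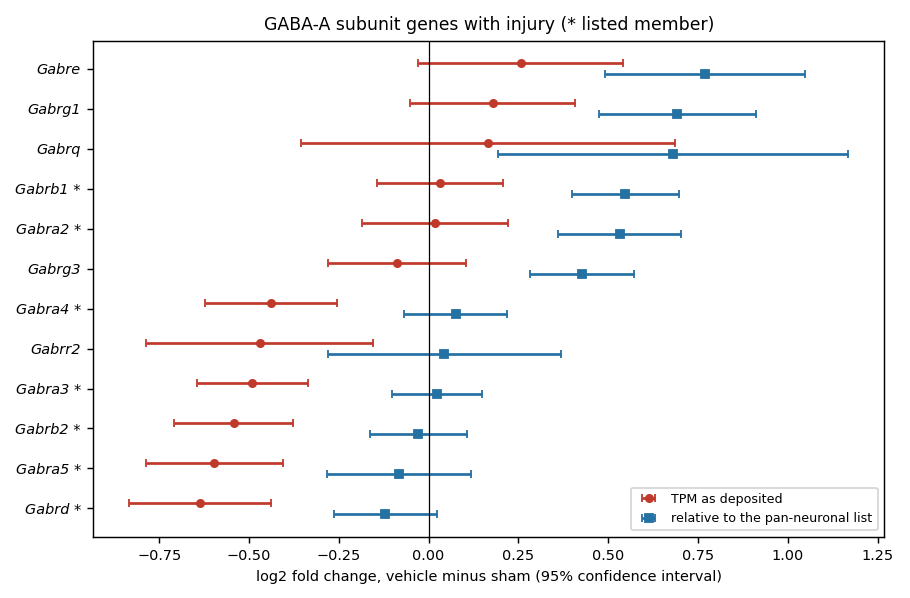
Log2 difference of vehicle minus sham (x axis) with its 95% confidence interval for the 7 genes and Gabrg1, Gabrg3, Gabre, Gabrq and Gabrr2 (y axis, * marks the 7 genes followed), from TPM as deposited (circles) and relative to the pan-neuronal genes of the same library (squares). Gabra2 and Gabrb1 sit at 0.02 and 0.03 on the first scale and at 0.53 and 0.55 on the second, while Gabra3, Gabra4, Gabra5, Gabrb2 and Gabrd lie between -0.64 and -0.44 on the first and between -0.12 and 0.08 on the second.

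Transcripts used as markers of cell types also differed between vehicle and sham mice. All 24 of 24 pan-neuronal genes, such as Snap25, a protein of vesicle fusion, were lower in vehicle than in sham mice, with a median log2 difference of -0.52. Their summed level ran from 20047 to 20504 TPM in sham and from 12706 to 15337 TPM in vehicle mice. Cortical excitatory markers were lower for 9 of 10 genes (1881 to 2082 TPM in sham, 1094 to 1248 TPM in vehicle mice) and interneuron markers for 7 of 10 (1295 to 1461 TPM against 887 to 1167 TPM). Microglial markers such as C1qa were higher for 10 of 10 genes (630.4 to 673 TPM against 3995 to 5721 TPM), leukocyte markers for 6 of 6 tested (34.4 to 41.2 TPM against 1472 to 2852 TPM) and astrocyte markers for 8 of 8 (1522 to 1677 TPM against 3704 to 4915 TPM). Lyz2 alone made up most of the leukocyte sum in vehicle mice (mean 2072 of 2393 TPM). No marker of these lists was at 0 in all libraries. The part of cell makeup in the subunit differences was not tested beyond the rescaling given next.

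When each library was expressed relative to the mean of its 24 pan-neuronal genes, Gabra3, Gabra4, Gabra5, Gabrb2 and Gabrd no longer passed the test against sham. Their log2 differences were 0.02, 0.08, -0.08, -0.03 and -0.12, so that the signs of Gabra3 and Gabra4 turned. Gabra2 (0.53, SE 0.08, adjusted p = 3.0e-06) and Gabrb1 (0.55, SE 0.07, adjusted p = 2.8e-07) were called higher on this scale. The scale moved the median of all genes by 0.51 on the log2 scale, and 84.8% of all genes were called higher and 1.58% lower on it. Gabra2 and Gabrb1 therefore lay within 0.05 of the median of all genes, 0.50, and the other 5 lay below it, on both scales.

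The tissue is labelled cortex, whereas the methods describe a quadrant that also holds striatum, dorsal hippocampus and thalamus. Markers of these regions were measured in all groups. Striatal markers, such as Ppp1r1b and Penk, summed to 1697 to 1971 TPM in sham and 1497 to 2260 TPM in vehicle mice, with 0 of 10 called. Thalamic markers summed to 359 to 429 TPM in sham and 264 to 332 TPM in vehicle mice, with 6 of 10 lower. Hippocampal CA markers summed to 184 to 199 TPM in sham and 148 to 181 TPM in vehicle mice, with 4 of 6 lower, and of 8 dentate gyrus markers 3 were lower and 2 higher (79.8 to 85.8 TPM against 70.4 to 74.6 TPM).

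The next comparisons ask what each drug did to these transcripts in injured mice. PLX3397 alone gave 0 of 7 calls against vehicle, and Anakinra alone gave 0 of 7. PLX3397+Anakinra gave 1 of 7, Gabrd, which was higher. The 3 comparisons share the vehicle mice. Of all genes, 3.23% were called higher with PLX3397, 0.0695% with Anakinra and 7.88% with PLX3397+Anakinra. At an unadjusted p below 0.05, 2 of the 7 genes were higher with PLX3397, beside 10.4% of all genes. At this threshold 2 were lower with Anakinra, beside 6.94% of all genes, and 3 were higher with the combination, beside 15.7%.

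Gabrd was at 99.5, 101, 119.7, 124 and 114 TPM with PLX3397+Anakinra, against 69.4 to 97.6 TPM with vehicle. Every mouse given the combination lay above every vehicle mouse, which 4.09% of all genes met in the higher direction. The mean was 111.8 ± 11.1 TPM (SD, n = 5) against 83.5 ± 12.9 TPM, and the log2 difference was 0.42 (SE 0.09, adjusted p = 0.0016). With PLX3397 alone Gabrd was at 108, 81.8, 92.3, 97.3 and 94.0 TPM (log2 difference 0.19, adjusted p = 0.22). With Anakinra alone it was at 94.5, 82.6, 96.8, 76.0 and 90.2 TPM (0.08, adjusted p = 0.74). Both of these groups overlapped the vehicle mice.

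Markers of thalamus and of cortical excitatory neurons, both sites of the δ subunit, were higher in part in the same comparison, whereas those of dentate gyrus were not. With PLX3397+Anakinra 4 of 10 thalamic markers were higher than with vehicle (310.7 to 417 TPM summed against 264 to 332 TPM). So were 7 of 10 cortical excitatory markers (1370.3 to 1430 TPM against 1094 to 1248 TPM) and 15 of 24 pan-neuronal genes (15539 to 16548 TPM against 12706 to 15337 TPM), beside 7.88% of all genes. Of striatal markers 0 of 10 were called (1867 to 2329 TPM against 1497 to 2260 TPM), and 1 of 6 hippocampal CA markers was higher. With PLX3397 alone 2 of 10 thalamic, 2 of 10 cortical excitatory and 10 of 24 pan-neuronal genes were higher, beside 3.23% of all genes. Of 8 dentate gyrus markers 3 were lower and 0 higher with the combination (median log2 difference -0.15, 65.0 to 79.7 TPM summed against 70.4 to 74.6 TPM). Within groups only the mouse with the highest Gabrd was set beside the thalamic sums, and the groups differed. The mouse with the highest Gabrd had the highest thalamic sum with the combination (J10, 417 TPM) and with PLX3397 (J01, 384 TPM). With Anakinra it was J14 (311 TPM, highest sum 388 in J22) and in sham J07 (398 TPM, highest sum 429 in J16). The vehicle mouse with the highest Gabrd, J17B, had the lowest thalamic sum of its group (264 TPM). Relative to the pan-neuronal genes Gabrd stayed higher with the combination (0.24, SE 0.07, adjusted p = 0.0074), where 0.527% of all genes were called higher. The part of these regions in this difference was not tested.

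Of the other 6 genes, Gabra3, Gabra4, Gabra5 and Gabrb2 had their highest mean in sham and their lowest with Anakinra, though Anakinra and vehicle differed by less than 1 SD. Gabra3 was at 71.6 ± 6.44 TPM with PLX3397, 63.3 ± 4.31 TPM with Anakinra and 73.5 ± 4.14 TPM with the combination, against 64.6 ± 7.03 TPM with vehicle (SD, n = 5 in these and the following groups). Gabra4 was at 93.4 ± 11.2, 83.8 ± 7.56 and 98.8 ± 9.85 TPM in the same 3 groups, against 86.5 ± 10.8 TPM. Gabra5 was at 48.2 ± 6.08, 41.9 ± 4.15 and 46.4 ± 3.61 TPM, against 42.1 ± 5.76 TPM, and Gabrb2 at 106.7 ± 9.68, 92.9 ± 6.70 and 107.6 ± 8.60 TPM, against 97.2 ± 12.5 TPM. In each of these 4 genes the 3 drug groups overlapped the vehicle mice. Gabra2 was at 28.7 ± 3.44, 28.0 ± 3.00 and 29.4 ± 2.56 TPM, against 32.2 ± 3.85 TPM, and Gabrb1 at 34.2 ± 1.52, 27.7 ± 2.87 and 33.0 ± 2.35 TPM, against 32.3 ± 4.44 TPM, also with overlap.

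As differences, these 6 genes gave intervals rather than calls. With PLX3397 the log2 differences from vehicle were 0.15 for Gabra3 (95% confidence interval 0.00 to 0.29), 0.11 for Gabra4 (-0.06 to 0.28), 0.19 for Gabra5 (0.01 to 0.37) and 0.14 for Gabrb2 (-0.02 to 0.29), with adjusted p from 0.18 to 0.48. Gabrb1 differed by 0.09 (-0.08 to 0.25) and Gabra2 by -0.16 (-0.36 to 0.03). With the combination Gabra3 differed by 0.19 (0.04 to 0.33, adjusted p = 0.067), Gabra4 by 0.19 (0.02 to 0.37, adjusted p = 0.12), Gabra5 by 0.15 (-0.03 to 0.33) and Gabrb2 by 0.15 (-0.01 to 0.31). Of the 7 group means 6 were above vehicle with PLX3397 and with the combination, and 6 of 7 were below it with Anakinra. The share of all genes above or below vehicle was not computed. Their median log2 difference was 0.01 with PLX3397, 0.01 with the combination and -0.02 with Anakinra. These counts share the vehicle mice, and several signs turned relative to the pan-neuronal genes with PLX3397 and with the combination. With Anakinra the log2 differences ran from -0.21 for Gabrb1 (-0.38 to -0.05, adjusted p = 0.26) to 0.08 for Gabrd.

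One vehicle mouse bears on these counts. J17B had the highest level of its group in 7 of 7 genes, together with the highest pan-neuronal sum (15337 TPM) and the lowest microglial sum (3995 TPM) of the vehicle mice. Without it, PLX3397 against vehicle gave 2 of 7 calls, Gabra5 (0.26, adjusted p = 0.040) and Gabrb2 (0.21, adjusted p = 0.0497), and PLX3397+Anakinra gave 4 of 7, Gabra3 (0.24, adjusted p = 0.015), Gabra4 (0.25, adjusted p = 0.042), Gabrb2 (0.22, adjusted p = 0.026) and Gabrd. The share of all genes called without J17B was not computed, so these counts cannot be read as particular to the subunit genes. Anakinra gave 0 of 7 whichever mouse was omitted. The vehicle mice alone carry the letter B in their numbers. What the letter marks is not given, and if it marks a batch it cannot be told apart from the vehicle group.

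**Figure D3:**
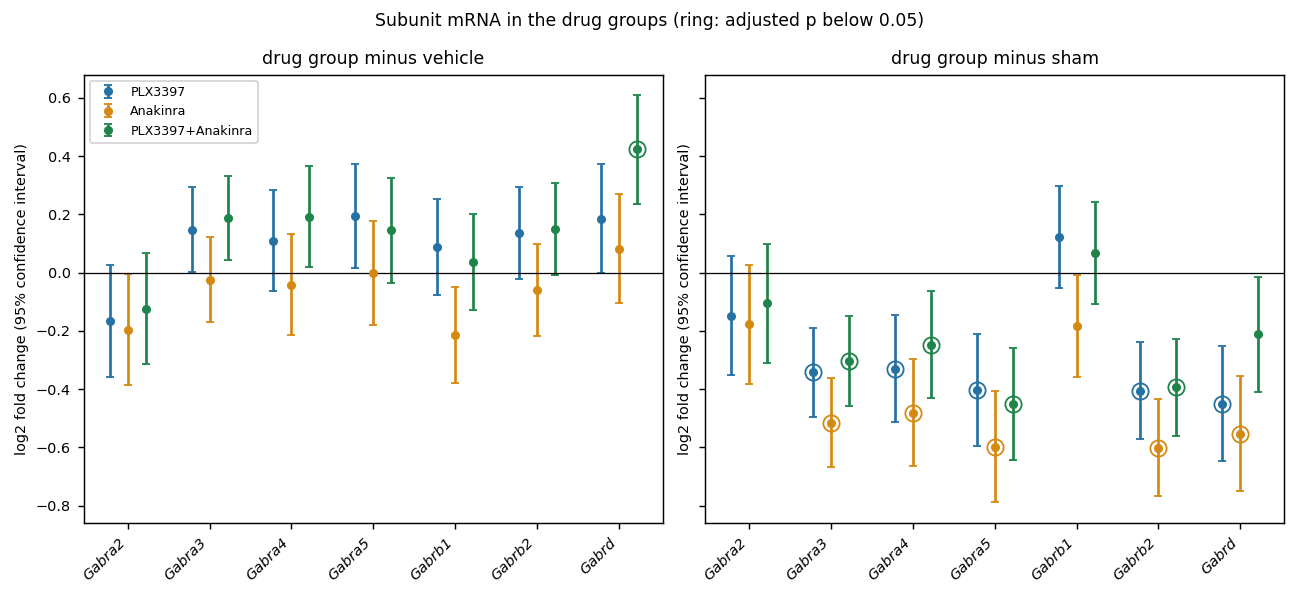
Log2 differences (y axis, with 95% confidence intervals) of the 7 genes (x axis) in the 3 drug groups, minus vehicle on the left and minus sham on the right, with rings around values whose adjusted p was below 0.05. Only Gabrd with PLX3397+Anakinra (0.42) is ringed on the left, while on the right 5, 5 and 4 genes are ringed for PLX3397, Anakinra and PLX3397+Anakinra, all below 0.

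Against sham the 5 genes lower with vehicle were also lower with PLX3397 and with Anakinra, and 4 of them with PLX3397+Anakinra. All 4 comparisons use the same sham mice. Of all genes tested 22.5% were called lower with PLX3397, 29.2% with Anakinra and 18.1% with the combination. With PLX3397 the 5 log2 differences from sham ran from -0.45 for Gabrd to -0.33 for Gabra4, and with Anakinra from -0.60 for Gabrb2 to -0.48 for Gabra4. With PLX3397+Anakinra Gabra5 was lower by 0.45 (log2 difference -0.45, adjusted p = 3.8e-04), Gabrb2 gave -0.39 (adjusted p = 3.8e-04), Gabra3 -0.30 (adjusted p = 0.0022) and Gabra4 -0.25 (adjusted p = 0.030). Gabrd gave -0.21 (interval -0.41 to -0.01, adjusted p = 0.085) and its mice overlapped those of the sham group. Gabra2 and Gabrb1 were called in none of these comparisons, with log2 differences between -0.18 and 0.12.

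PLX3397+Anakinra was also compared with each drug alone. Against PLX3397 0 of 7 genes were called, beside 0.00579% of all genes called higher, and at an unadjusted p below 0.05 1 of 7, Gabrd, was higher (0.24, interval 0.05 to 0.42, adjusted p = 0.53), beside 2.94% of all genes. Against Anakinra 3 of 7 were higher, beside 4.67% of all genes. These were Gabrd (0.34, SE 0.09, adjusted p = 0.013), Gabrb1 (0.25, SE 0.08, adjusted p = 0.040) and Gabra3 (0.21, SE 0.07, adjusted p = 0.048). Gabra3 was at 73.5, 77.4, 71.2, 67.8 and 77.4 TPM with the combination. With Anakinra it was at 55.9, 65.5, 64.5, 66.7 and 64.1 TPM, without overlap. The share of all genes without overlap in this comparison was not computed. Gabrb1 was at 31.7, 34.3, 30.5, 32.2 and 36.4 TPM against 25.5, 25.5, 28.3, 26.6 and 32.3 TPM, with 1 Anakinra mouse, J22, inside the range of the combination. The count of 3 fell to 1 without Anakinra mouse J05 or J06 or combination mouse J04 or J17, and to 0 without Anakinra mouse J21.

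The interaction asks whether the difference made by Anakinra depended on PLX3397. In limma 0 of 7 genes passed it, with adjusted p of 0.65 or more and 0 at an unadjusted p below 0.05. Over all genes 0% were called lower and 0% higher, while 1395 of 17267 had an unadjusted p below 0.05 and the smallest adjusted p was 0.15. For Gabrd the interaction was 0.16 on the log2 scale (interval -0.11 to 0.42). A larger response of Gabrd to the combination than to the sum of both drugs was thus not detectable with these mice.

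The balance among the listed subunits of a class was computed after the values were seen. The summed TPM of Gabra2, Gabra3, Gabra4 and Gabra5 was 304 ± 17.9 in sham and 225 ± 25.1 in vehicle mice, and 242 ± 19.7 with PLX3397, 217 ± 13.7 with Anakinra and 248 ± 18.2 with the combination (SD). Of this sum Gabra2 made up 10.5% ± 1.06 in sham and 14.3% ± 0.834 in vehicle mice. Of the summed Gabrb1 and Gabrb2 level, Gabrb1 made up 18.2% ± 0.469 in sham and 24.9% ± 0.580 in vehicle mice, and Gabrb2 the remainder. The ranges of the groups did not overlap for either share. Each was higher after injury with an exact two-sided permutation p = 0.00794, unadjusted, the smallest that 5 against 4 mice allow. The shares restate the levels given above, where Gabra2 and Gabrb1 stayed near sham while the other genes of each sum fell. They are thus not separate support, here or in the drug groups. The share of Gabra5 was 21.03% ± 1.07 in sham and 18.7% ± 1.63 in vehicle mice (exact permutation p = 0.024, and 0.068 after Benjamini-Hochberg adjustment over the 20 share tests), which did not pass. Those of Gabra3 and Gabra4 gave exact permutation p-values of 0.079 and 0.76.

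With PLX3397 the share of Gabra2 was 11.8% ± 0.812 and with PLX3397+Anakinra 11.9% ± 0.365 (SD, n = 5). Both groups lay below every vehicle mouse (exact permutation p = 0.00794 each, unadjusted, again the smallest possible). With Anakinra it was 12.9% ± 0.786 (exact permutation p = 0.040, adjusted 0.099), which did not pass. The share of Gabrb1 was 24.3% ± 0.942 with PLX3397 (exact permutation p = 0.25 against vehicle), 22.9% ± 0.660 with Anakinra and 23.5% ± 0.301 with the combination. The latter 2 groups lay below every vehicle mouse (exact permutation p = 0.00794 each, unadjusted). The 6 results at the smallest p had an adjusted p of 0.026 over the 20 such tests, by the exact permutation test, and shares of 1 sum are not independent of each other. Relative to the pan-neuronal genes Gabra2 was likewise lower with PLX3397 (-0.32, SE 0.08, adjusted p = 0.0053) and with PLX3397+Anakinra (-0.31, SE 0.08, adjusted p = 0.0041) than with vehicle, where 27.6% and 39.5% of all genes were called lower.

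**Figure D4:**
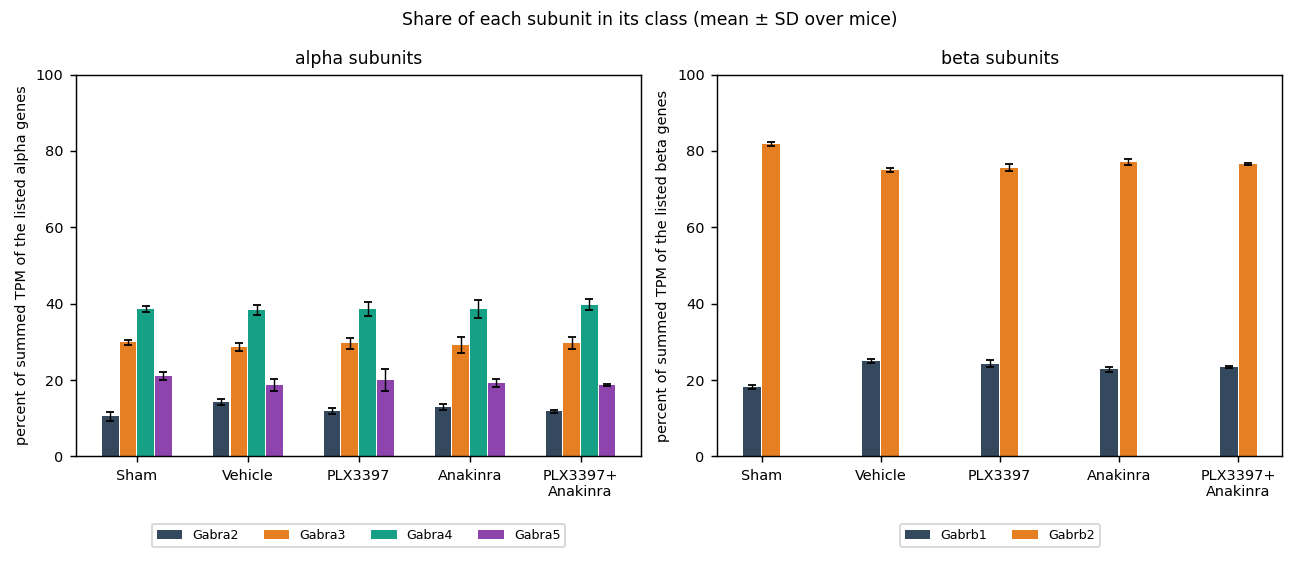
Share (y axis, percent of the summed TPM of the genes shown) of the 4 listed α subunit genes on the left and the 2 listed β subunit genes on the right in the 5 groups (x axis), as mean and SD over mice. Gabra2 goes from 10.5% in sham to 14.3% in vehicle mice, and Gabrb1 from 18.2% to 24.9%.

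Genes that make, bind and respond to GABA were looked at in 4 lists of 42 genes in all, chosen for their role. In vehicle against sham 25 of 42 were lower and 7 higher, beside 27.7% and 26.6% of all genes, with a median log2 difference of -0.26. For the anchoring, trafficking and assembly of GABA-A receptors 12 of 16 were lower and 2 higher. Among those lower were Iqsec3 (-0.59), Slitrk3 (-0.49), an adhesion protein of inhibitory synapses, Nlgn2 (-0.48), the neuroligin of inhibitory synapses, and Gphn (-0.26), the scaffold gephyrin. Higher were Gabarap (0.63), a receptor trafficking and autophagy protein, and Plcl1 (0.29). For GABA synthesis, release and uptake 3 of 8 were lower, among them Gad1 (-0.38), a synthesis enzyme, and the vesicular transporter Slc32a1 (-0.30), and 1 was higher, the glial transporter Slc6a11 (0.13).

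Of 8 genes of GABA-B receptors and their effectors 5 were lower with injury and 1 was higher, beside 27.7% and 26.6% of all genes. The receptor genes Gabbr1 (-0.31) and Gabbr2 (-0.64) and the potassium channel genes Kcnj3 (-0.74), Kcnj6 (-0.47) and Kcnj9 (-0.90) fell, and Kctd12 (0.81), an auxiliary subunit, rose. Of 10 genes of chloride transport 5 were lower and 3 higher, the latter near the share of all genes. The median log2 difference of the pan-neuronal genes in this comparison was -0.52. Slc12a5, which encodes the neuronal chloride extruder KCC2, was at 426 ± 20.6 TPM in sham and 273 ± 23.0 TPM in vehicle mice (log2 difference -0.64, adjusted p = 4.1e-08), whereas Slc12a2, which encodes the chloride importer NKCC1, was at 57.4 ± 4.98 and 80.1 ± 3.35 TPM (0.48, adjusted p = 2.0e-08).

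With PLX3397+Anakinra against vehicle 7 of the 42 genes were higher, beside 7.88% of all genes, and 4 were lower, beside 9.6%, with a median log2 difference of 0.08 over the 42 and 0.01 over all genes. The share of the lists called lower was thus near that of all genes. Higher were Gabbr2 (0.28), Kcnj9 (0.35), Kctd16 (0.58), Slc12a5 (0.21, adjusted p = 0.035), Car7 (0.29), Gabarapl1 (0.14) and Slitrk3 (0.18, adjusted p = 0.049). Lower were Kctd12 (-0.58), Gabarap (-0.21), Slc12a2 (-0.17, adjusted p = 0.014) and Wnk1 (-0.18). Slc12a5 stood at 315 ± 24.6 TPM and Slc12a2 at 71.1 ± 3.59 TPM with the combination. With PLX3397 alone 1 gene was higher, Kcnj9 (0.22), and 2 were lower, Kctd12 (-0.57) and Wnk1 (-0.18), beside 3.23% and 6.66% of all genes, and with Anakinra 0 of 42 were called in either direction. Transcripts of the PLX3397 target Csf1r were at 61.2 TPM in sham, 226 with vehicle, 89.1 with PLX3397, 221 with Anakinra and 77.5 with the combination. The 10 microglial markers, 10 of which were lower with PLX3397 and with the combination than with vehicle and 0 with Anakinra, summed to 1885 to 3032 TPM with PLX3397, 4564 to 5143 TPM with Anakinra and 1582 to 2045 TPM with the combination. Kctd12 went the same way, at 49.9 TPM in sham, 88.4 with vehicle, 59.4 with PLX3397, 87.0 with Anakinra and 58.7 with the combination. Which cells this transcript came from was not tested.

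Across the 24 libraries the 7 genes varied together to different degrees. Pearson's r between pairs ran from 0.23 to 0.92 over 21 pairs, and after the group means were taken out from -0.09 to 0.93 with a median of 0.60. These values describe libraries that share group differences and tissue makeup. Among the 10 genes outside the family whose log2(TPM + 1) followed the mean of the standardized members most closely, of 12511 genes with at least 5 TPM, were Ttll7, Pja2 and Psd3 (r = 0.98 each) and Reps2, Akap6, Kif3a, Fam49a, Rhot1 and Map2 (r = 0.97 each), over 24 libraries.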

How the data were processed

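Lesional to perilesional brain tissue of 24 male mice was sequenced after poly(A) selection as paired 150-cycle reads, and groups follow the treatment label of each sample. The authors trimmed and mapped the reads to mm10 (GRCm38) with CLC Genomics Workbench, and the values they deposited are TPM, summing to 1000000 per library. Their methods add that CLC calls this unit CPM, so levels compared between genes, and shares of a class, rest on their statement of the unit. A table with rounded TPM served as an alternative. A filtered table, which also holds the authors' p-values and F values, was not used. No read counts were in the tables used here, so the depth per library is unknown and precision rests on the spread between 4 or 5 mice.

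Of 36333 genes, the 17267 whose mean reached 0.5 TPM were transformed to log2(TPM + 1) and modelled with limma 3.58.1 (R 4.3.3), with 1 mean per group, a variance trend and Benjamini-Hochberg adjustment over all genes tested. A fold change on this scale understates that of low genes. Single values were tested with an exact two-sided permutation test of the mice, whose smallest p is 0.00794. The fit was tested on simulated data. Members and lists were chosen with earlier results of these data known, so the counts of members are not independent support. Genes were named by a rule: the subunit genes, GABA synapse genes called in a comparison with sham or vehicle, at most 3 genes of each cell type list by mean TPM, and the 10 genes most like the members. Some genes that the rule names are not reported here. Vehicle and PLX3397 mice that share a number (J01, J19, J20) had deviations that correlated at 0.17, -0.13 and -0.07, so the numbers were not taken to pair the mice. Alternatives were the pseudocount, the filter, the scaling, the table, the fit and each mouse left out in turn.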

Additional observations from a re-analysis of the deposited data

Results flagged for a closer look

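The 7 genes were checked for single mice far from their group by Dixon's test in 35 groups, and about 1 in 20 such groups is expected to stand out by chance. Gabra2 in Anakinra mouse J22 was at 33.2 TPM, whereas the other 4 mice lay between 25.5 and 27.5 TPM. Gabra3 in Anakinra mouse J05 was at 55.9 TPM, whereas the other 4 lay between 64.1 and 66.7 TPM. Mouse J22 had the highest level of its group in 5 of the 7 genes and J05 the lowest in 3 of 7.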

How the results depend on the processing

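Of 903 values of single genes recomputed under the alternatives, 867 kept their direction and side of the threshold and 24 turned their sign. With the sign kept, 9 came to pass the threshold and 3 no longer passed it. Values that turned their sign were counted only as such. They include Gabra3 and Gabra4 in vehicle against sham relative to the pan-neuronal genes, which also no longer passed. With each of the 24 mice left out in turn, vehicle against sham kept 5 calls and PLX3397 against sham 5, Anakinra against sham gave 5 to 7, PLX3397+Anakinra against sham 3 to 4, and PLX3397+Anakinra against PLX3397, Anakinra against vehicle and the interaction 0. PLX3397 against vehicle gave 0 to 2, PLX3397+Anakinra against vehicle 1 to 4 and PLX3397+Anakinra against Anakinra 0 to 4. Shares of all genes were not computed for these fits. Gabrd with PLX3397+Anakinra against vehicle stayed called, at 0.36 to 0.48 with adjusted p from 3.7e-04 to 0.0080.

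The count of 3 for PLX3397+Anakinra against Anakinra became 1 with no filter beyond TPM above 0, 1 with no variance trend, 5 with only the compared groups in the fit, 0 by the study criteria and 0 relative to the pan-neuronal genes. The study criteria gave 0 calls for vehicle against sham, PLX3397+Anakinra against vehicle and the 3 drug groups against sham. Relative to the pan-neuronal genes 2 members, Gabra2 and Gabrb1, were higher and 0 lower for vehicle and for each drug group against sham. Of 17267 genes, 12785 were called higher there with PLX3397, 14476 with Anakinra and 12589 with PLX3397+Anakinra. Against vehicle 1 member was lower and 0 higher with PLX3397, and 1 was lower and 1 higher with PLX3397+Anakinra. On that scale signs turned for Gabra3 (0.024) and Gabra4 (0.075) in vehicle against sham, for Gabra3 (-0.0036), Gabra4 (-0.041), Gabrb1 (-0.063) and Gabrb2 (-0.015) in PLX3397 against vehicle, and for Gabra5 (-0.041), Gabrb1 (-0.15) and Gabrb2 (-0.037) in PLX3397+Anakinra against vehicle. With median ratio rescaling Gabra5 in Anakinra against vehicle turned to 0.017. The causes of these changes were not tested.

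Values near 0 also turned with a mouse left out, in the range of Gabra2 from -0.044 to 0.10 and of Gabrb1 from -0.036 to 0.088 in vehicle against sham. In Anakinra against vehicle the ranges were -0.066 to 0.028 for Gabra3, -0.10 to 0.013 for Gabra4, -0.054 to 0.067 for Gabra5 and -0.096 to 0.012 for Gabrb2, and in PLX3397+Anakinra against vehicle -0.010 to 0.11 for Gabrb1. Taking the shared animal number as a replicate block in PLX3397 against vehicle left 0 of 7 members called (consensus correlation 0.04). The files give no depth, so what read depth limits cannot be stated.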
